A study of Homo sapiens with 34 samples.

Results

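Androgen-independent (AI) LNCaP cells that had been transfected with a mock siRNA were compared with AI cells that had not been transfected, gene by gene, in poly(A) RNA-seq. The comparison held 2 AI mock and 2 AI untreated libraries. Of 28071 genes in the table, 37 with symbols that start with MT- were set aside, each library was rescaled to the same sum, and the 12477 genes with a level of at least 0.5 RPKM, reads scaled by gene length and library size, in at least 2 of the 4 libraries were tested. Levels are given as rescaled RPKM, with library 1 given before library 2 of each group, and changes are differences of log2(RPKM + 0.5), AI mock minus AI untreated, which understate the change of genes near 0.

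LNCaP is an established human prostate cancer line of luminal type. The AI cells were grown in medium with charcoal-stripped serum, which is poor in steroids, while the androgen-dependent (AD) cells grew in standard medium. AI mock cells received a negative control siRNA with Lipofectamine 2000 and were collected 24 h later, and AI siEZH2 cells received siRNA against EZH2 in the same way. The labels name no transfection for AI untreated cells, and AD mock and AD untreated cells form the matching pair used for the test of a difference between the cell types. Each of these groups held 2 libraries, and 12 RNA-seq libraries, AD siEZH2 included, shared the estimate of spread. The transfection text of the labels names LNCaP/abl cells whereas the titles and the growth text name LNCaP (AI), so transfection and a change of subline cannot be told apart. The titles were followed for all groups. There was no group with lipid alone, and the labels do not say that the 2 libraries of a group came from separate cultures, so p-values measure the spread between these libraries, which may be technical.

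The 2 AI mock libraries stood close together, with a Pearson correlation of 0.992 across genes, against 0.974 between the 2 AI untreated libraries and 0.858 to 0.880 between AI mock and AI untreated libraries. Mitochondrial transcripts (MT- symbols) made up 3.94% and 4.07% of the deposited RPKM in AI mock libraries, against 19.6% and 33.4% in AI untreated libraries. The split was similar in AD cells, at 2.37% and 2.45% in AD mock and 18.4% and 32.6% in AD untreated libraries. The labels do not say that transfected and untreated libraries were prepared together, so transfection and library preparation cannot be told apart. The 15 most abundant remaining genes took 13.5% and 13.6% of the rescaled sum in AI mock libraries and 9.34% and 8.98% in AI untreated libraries. The steps between low RPKM values give rough depths, in units of M (mega) reads, of 8.66 and 12.4 for AI mock and 18 and 51.3 for AI untreated libraries, with only 50.6% to 71.1% of the low values lying within 0.12 reads of a whole read. The part of depth and of the mitochondrial share in the results was not tested.

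Hypoxia-inducible factors (HIF) are stabilised when oxygen or iron is short. They switch on genes for glucose uptake, glycolysis and blood vessel growth through a short core, such as ACGTG, in promoters and enhancers. The integrated stress response slows translation and, through ATF4 and its partners, raises genes such as ATF3, DDIT3 and TRIB3. In LNCaP cells androgen signalling works with the factors FOXA1 and HOXB13 to maintain luminal genes, among them the secreted kallikreins KLK2 and KLK3 (prostate-specific antigen).

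Glycolysis, hypoxia and stress genes were higher in AI mock than in AI untreated cells, and most genes for pre-mRNA splicing, ribosome assembly, DNA replication and cytosolic protein folding were lower, beside a majority of all genes. Of the 12477 genes tested, 1892 were called higher (15.2%) and 6709 lower (53.8%) in AI mock cells by limma at a Benjamini-Hochberg adjusted p under 0.05. Changes of at least 2 log2 units in called genes numbered 175 upward and 965 downward. The groups did not overlap for 2604 genes that were higher and 7859 that were lower in AI mock cells. An exact permutation test of 2 against 2 libraries cannot go below p = 0.333, so calls rest on the spread shared across the 12 libraries.

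The split between higher and lower depended on the scaling. With equal sums the median change of all genes tested was -0.59, with trimmed mean of M-values (TMM) scaling it was -0.06, and with quantile normalization it was -0.03. TMM called 3719 genes higher (29.9%) and 4213 lower (33.9%), and quantile normalization 3623 higher and 3820 lower. Under all 3 scalings 1858 genes were called higher and 3453 lower. No gene called higher with equal sums was called lower with TMM, and 36 genes called lower were called higher with TMM. A change of -0.59 on the equal-sum scale is therefore that of the middle gene, and list counts are given with the TMM counts after them.

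**Figure D1:**
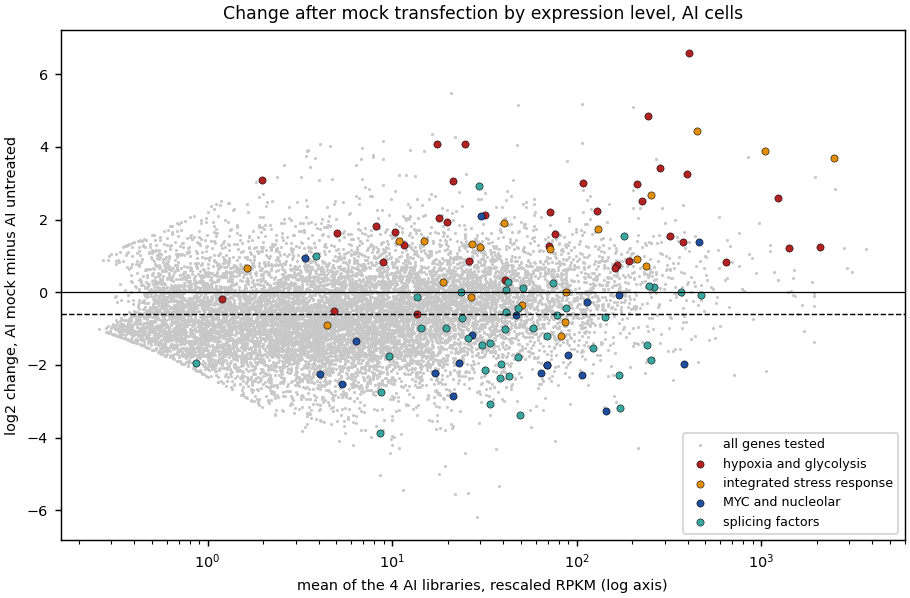
Log2 change of each gene tested (vertical axis, AI mock minus AI untreated) against the mean of the 4 AI libraries in rescaled RPKM (horizontal log axis), with members of 4 gene lists in colour. The dashed line is the median of all genes, -0.59. The hypoxia and glycolysis genes lie mostly above it, with ANKRD37 highest at 6.57, and most MYC and nucleolar genes lie below it.

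The gene with the largest rise among well measured protein-coding genes was ANKRD37, an ankyrin repeat protein and a known HIF target. It stood at 781 and 833 RPKM in AI mock libraries and 7.52 and 8.51 RPKM in AI untreated libraries, a 101-fold ratio of means and 6.57 ± 0.12 log2 units (SE; adjusted p from limma 1.18e-09). Both AI mock libraries lay far above both AI untreated libraries. Of the 18 hypoxia genes tested, 15 were called higher and 0 lower, with a median change of 2.18, and the TMM counts were the same. The remaining 3, HIF1A, CA12 and EPAS1, were not called (log2 changes -0.59, -0.53 and -0.19), and 2 of them, HIF1A and EPAS1, encode the oxygen-regulated HIF subunits themselves, which are controlled mainly as proteins. HIF1A had 9.2 and 12 RPKM in AI mock libraries and 11.7 and 22 RPKM in AI untreated libraries, and without AI untreated library 1 HIF1A and CA12 were called lower (-1.03 and -0.77).

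The HIF targets that rose covered signalling, pH, mitochondria and the feedback on HIF itself. VEGFA, the main growth factor for blood vessels, had 376 and 375 RPKM in AI mock libraries and 40.1 and 55.3 RPKM in AI untreated libraries. NDUFA4L2, a mitochondrial protein that lowers complex I activity under hypoxia, had 47.7 and 46.5 RPKM in AI mock libraries against 1.98 and 2.72 RPKM in AI untreated libraries. CA9, a carbonic anhydrase of the cell surface, had 3.84 and 4.0 RPKM in AI mock libraries and 0.0338 and 0 RPKM in AI untreated libraries. In all 3 genes the groups were far apart and the libraries within a group close together, with log2 changes of 2.98, 4.07 and 3.10. NDRG1, a stress and differentiation protein that is also on the androgen-induced list, had 478 and 461 RPKM in AI mock libraries and 15.1 and 16.3 RPKM in AI untreated libraries (log2 change 4.86). EGLN1 and EGLN3, the prolyl hydroxylases that mark HIF for degradation, rose by 1.82 and 1.66. The mitophagy receptors BNIP3 and BNIP3L rose by 1.28 and 2.22, and P4HA1, a collagen prolyl hydroxylase, rose by 3.01.

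All 19 glycolysis genes tested were called higher, with a median change of 1.56, under equal sums and under TMM. The rise covered glucose uptake and phosphorylation, with SLC2A1, the GLUT1 transporter, up by 2.14 and the hexokinases HK1 and HK2 up by 1.59 and 2.03. GPI, which converts glucose 6-phosphate to fructose 6-phosphate, had 743 and 688 RPKM in AI mock libraries and 87.1 and 63.5 RPKM in AI untreated libraries (log2 change 3.26, limma adjusted p = 9.26e-08). The aldolases ALDOC and ALDOA, which split the fructose bisphosphate, came next. ALDOC had 530.0 and 501 RPKM in AI mock libraries and 55.4 and 41 RPKM in AI untreated libraries, and ALDOA had 2133 and 2089.6 RPKM in AI mock libraries and 360.0 and 339 RPKM in AI untreated libraries. PGK1, an ATP-forming enzyme of the pathway, rose by 2.51, and the bifunctional regulators PFKFB3 and PFKFB4 of the hypoxia list rose by 3.05 and 4.08. LDHA, which turns pyruvate into lactate, rose by 1.56, and PDK1, which blocks entry of pyruvate into the mitochondria, rose by 1.62. The smallest rises were those of PFKM (0.33) and PGAM1 (0.68), and the PFKM call was lost without AI mock library 1 (0.23) or AI untreated library 2 (0.23). GAPDH and other abundant enzymes have many processed pseudogenes, and how reads were divided among such copies is not given in the sources used here.

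Promoter windows of 4 genes are shown because the hypoxia and glycolysis lists moved together and ACGTG, a form of the HIF core, is short enough to search for. They are the 250 bases before the RefSeq gene start (GRCh38.p14), printed 5′ to 3′ on the gene's strand, with ACGTG on either strand in capitals and the whole of CACGTG in capitals where the core lies in that palindrome. ANKRD37 (chr4:185396591-185396840, plus strand) and ALDOC (chr17:28576896-28577145, minus strand) held 2 sites each, of which 1 was CACGTG. GPI (chr19:34364742-34364991, plus strand) held 1, and NOP56 (chr20:2652382-2652631, plus strand), from the falling nucleolar list, held 0. Other forms of the core were not searched for, so a count of 0 covers the letters ACGTG only.
ANKRD37: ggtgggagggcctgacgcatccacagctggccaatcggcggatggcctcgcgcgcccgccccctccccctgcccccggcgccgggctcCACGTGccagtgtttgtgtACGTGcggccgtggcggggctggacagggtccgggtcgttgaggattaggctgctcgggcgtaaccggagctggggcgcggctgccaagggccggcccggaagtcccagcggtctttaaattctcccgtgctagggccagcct
ALDOC: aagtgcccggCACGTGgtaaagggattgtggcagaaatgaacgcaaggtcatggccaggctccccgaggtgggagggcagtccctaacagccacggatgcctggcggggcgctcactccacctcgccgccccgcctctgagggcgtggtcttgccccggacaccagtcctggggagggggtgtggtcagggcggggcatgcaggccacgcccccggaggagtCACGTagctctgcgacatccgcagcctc
GPI: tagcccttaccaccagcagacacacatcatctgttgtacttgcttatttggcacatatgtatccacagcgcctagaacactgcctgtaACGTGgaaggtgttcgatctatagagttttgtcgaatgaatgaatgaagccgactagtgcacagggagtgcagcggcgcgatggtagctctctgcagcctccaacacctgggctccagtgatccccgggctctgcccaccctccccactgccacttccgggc
NOP56: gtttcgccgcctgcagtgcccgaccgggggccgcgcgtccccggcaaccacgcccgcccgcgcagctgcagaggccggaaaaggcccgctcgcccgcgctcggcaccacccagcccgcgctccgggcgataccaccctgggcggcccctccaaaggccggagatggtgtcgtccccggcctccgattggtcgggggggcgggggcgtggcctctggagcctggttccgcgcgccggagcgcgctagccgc
The letters ACGTG, searched on both strands, were present in 18.68% of 27305 such windows before the start and in 24.52% of the 9304 promoters of genes tested. They were present in 5 of 14 hypoxia promoters, 8 of 18 glycolysis promoters and 6 of 15 promoters of the MYC and nucleolar list. CACGTG, which contains ACGTG and is also the E-box core read by MYC and by BHLHE40, was present in 9.276% of promoters of genes tested, in 2 of 14 hypoxia promoters, 3 of 18 glycolysis promoters and 0 of 15 nucleolar ones. The counts describe letters in these 250 bases and are no sites of binding.

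**Figure D2:**
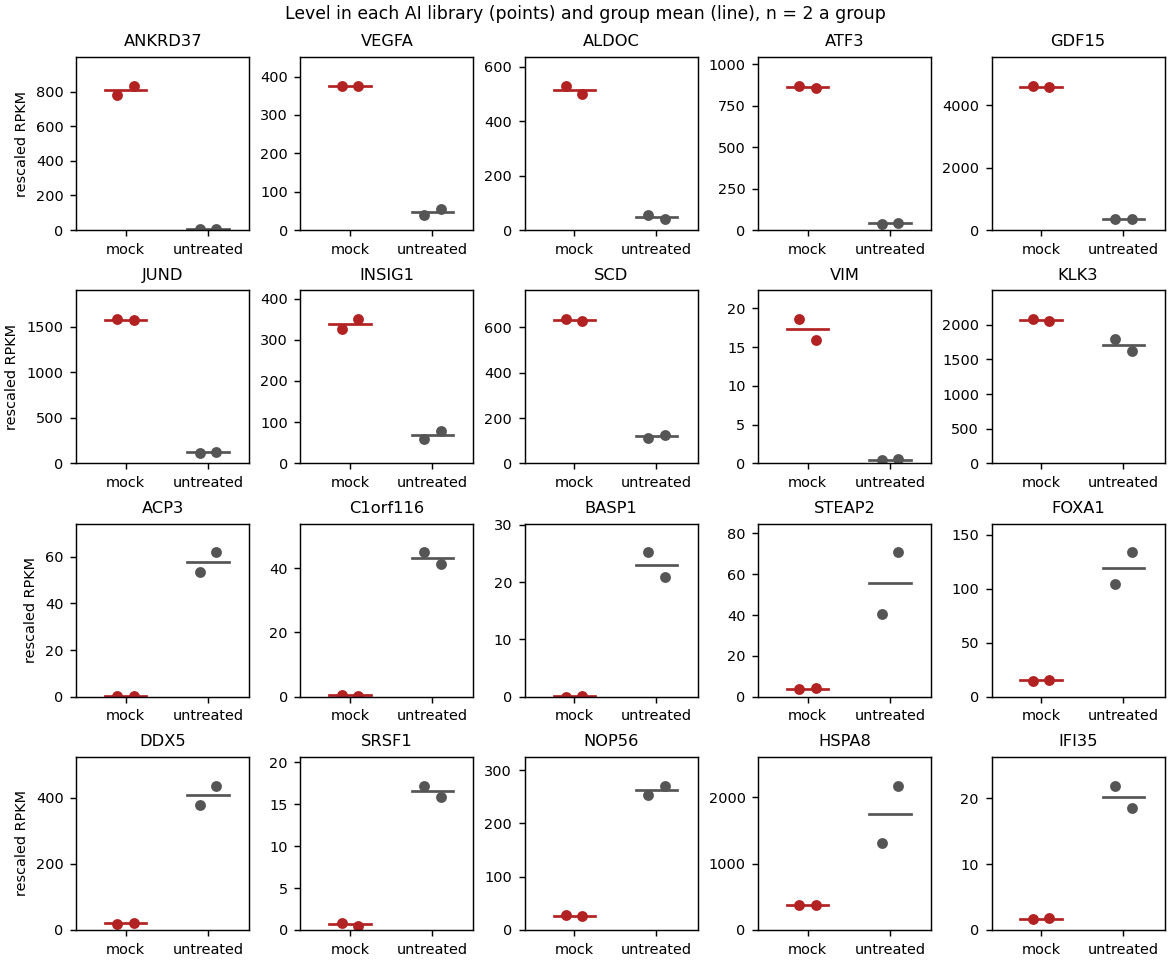
Rescaled RPKM of 20 genes in each AI mock library (red, left) and each AI untreated library (grey, right), with a line at the group mean, n = 2 a group, each panel with its own vertical axis from 0. The upper panels show genes that rose, such as GDF15 at 4616 and 4576 in AI mock and 357 and 350.3 in AI untreated libraries, apart from KLK3, which was not called. The lower panels show genes that fell, such as DDX5.

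Genes of the respiratory chain that are encoded in the nucleus also leaned upward. Of 42 tested, 25 were called higher and 1 lower, with a median change of 0.67, and TMM called 36 higher and 0 lower. COX5B and COX8A, subunits of cytochrome c oxidase, rose by 2.07 and 2.33. COX5B had 969.5 and 928 RPKM in AI mock libraries and 281 and 181 RPKM in AI untreated libraries, and the AI untreated libraries differed by more than the AI mock ones. SDHA, the flavoprotein of succinate dehydrogenase, was the member called lower, with 43.3 and 41.9 RPKM in AI mock libraries and 72.8 and 69.3 RPKM in AI untreated libraries. These transcripts moved the other way from the transcripts of the mitochondrial genome, whose share is given above. Of 43 mitochondrial ribosomal proteins 14 were called higher and 8 lower, against 28 higher and 0 lower with TMM.

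Stress genes formed the next group. Of 21 integrated stress response genes tested, 14 were called higher and 3 lower (median 1.20), and TMM called 17 higher and 1 lower. ATF3, a stress-induced transcription factor, had 870.1 and 855 RPKM in AI mock libraries and 37 and 42.5 RPKM in AI untreated libraries, which is a rise of 4.43 ± 0.11 log2 units (SE; adjusted p from limma 4.97e-09). GDF15, a secreted stress cytokine, had 4616 and 4576 RPKM in AI mock libraries and 357 and 350.3 RPKM in AI untreated libraries. DDIT4, an inhibitor of mTORC1 signalling that is also raised by hypoxia, had 2007 and 1909 RPKM in AI mock libraries and 136 and 131 RPKM in AI untreated libraries. In each of the 3 both AI mock libraries were more than 10 times the AI untreated ones. DDIT3 (CHOP), the factor tied to stress-induced death, rose by 2.69. TRIB3 and CHAC1, which act below ATF4, rose by 1.32 and 1.40, and the transcript of ATF4 itself, which is regulated mainly in translation, was called lower (-0.82), at 60.3 and 60.7 RPKM in AI mock libraries against 77.8 and 148 RPKM in AI untreated libraries. The ATF4 call was absent with TMM (-0.23), quantile normalization (-0.72) and values as deposited (-0.41). It was also absent without a filter on low values and with the 4 libraries alone (-0.82 in each). The same held without either AI mock library or AI untreated library 2 (-0.83 to -0.36). PSAT1, an enzyme of serine synthesis, fell by 1.21, whereas PHGDH, the enzyme that opens that pathway, rose by 0.72.

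Immediate early genes were mostly higher, with 10 of 17 called higher and 3 lower (TMM 14 and 2). IER3, a survival gene of early stress, had 45.6 and 36.9 RPKM in AI mock libraries and 0.586 and 0.289 RPKM in AI untreated libraries. FOS had 25 and 22.7 RPKM in AI mock libraries and 1.18 and 1.04 RPKM in AI untreated libraries, and its partners JUND and JUNB, which join it in the AP-1 factor, rose by 3.71 and 3.61. JUND was the most abundant of these, with 1582 and 1574 RPKM in AI mock libraries against 115 and 125 RPKM in AI untreated libraries. EGR1 and MYC moved the other way. EGR1, a zinc finger factor of the serum response, had 0.287 and 0.0444 RPKM in AI mock libraries and 2.2 and 2.34 RPKM in AI untreated libraries, and MYC had 29.1 and 25.8 RPKM in AI mock libraries and 111 and 111 RPKM in AI untreated libraries. BTG2, an antiproliferative gene, was the other member called lower, though not with TMM.

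Other large rises fell outside the lists. BHLHE40, a repressor of the circadian and hypoxia response, had 214 and 206 RPKM in AI mock libraries and 4.79 and 5.89 RPKM in AI untreated libraries. MAFF, a small MAF factor, had 95.9 and 91.7 RPKM in AI mock libraries against 2.18 and 2.1 RPKM in AI untreated libraries, and GADD45B, a stress sensor, had 392 and 399.6 RPKM in AI mock libraries against 10.2 and 12.1 RPKM in AI untreated libraries. All 3 rose by more than 5 log2 units. CDKN1C, a cyclin-dependent kinase inhibitor, rose by 4.35, DHRS3, a retinal reductase, by 4.28, EDN2, a vasoconstrictor peptide, by 4.11, and TSC22D3 (GILZ), a gene best known as a glucocorticoid target, by 4.11. TSC22D3 had 209 and 198 RPKM in AI mock libraries and 12.2 and 10.5 RPKM in AI untreated libraries.

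Of 19 p53 targets, 9 were called higher and 6 lower (TMM 11 and 5). BBC3 (PUMA), which promotes apoptosis, and GADD45A rose by 2.66 and 2.42, and CDKN1A (p21), the target that arrests the cell cycle, by 0.63. PLK2 fell by 2.60 and MDM2, the ligase that degrades p53, by 1.23. Among 10 genes of the NF-kB list, NFKBIA, the inhibitor that NF-kB itself induces, was the member that rose most, with 198 and 201 RPKM in AI mock libraries and 43.1 and 38.4 RPKM in AI untreated libraries. In that list 5 members were called higher and 1, NFKB1, lower (TMM 7 and 1).

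Members of the inhibitor of differentiation family rose. ID3 had 24.7 and 23.9 RPKM in AI mock libraries and 2.39 and 2.02 RPKM in AI untreated libraries, and ID2 rose by 2.03. TGFB1 rose by 2.43 and BAMBI, a decoy receptor for the same family of signals, fell by 1.06. These stand in a list of 8 with 4 called higher and 1 lower (TMM 6 and 1).

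Both lipid lists were mixed. Of 25 sterol genes, 9 were called higher and 6 lower, and of 16 fatty acid genes 7 higher and 6 lower (TMM 13 and 3, and 10 and 3). INSIG1, which holds back the sterol regulatory factors, had 326 and 349.8 RPKM in AI mock libraries and 59.4 and 77.4 RPKM in AI untreated libraries. FDFT1 (squalene synthase) rose by 2.31, and TM7SF2, a late enzyme of the route to cholesterol, fell by 1.47. SCD, the desaturase that makes monounsaturated fatty acids, had 636 and 629 RPKM in AI mock libraries against 112 and 126 RPKM in AI untreated libraries, and FASN (fatty acid synthase) rose by 1.90. ELOVL5 and ACACA, for chain elongation and for malonyl-CoA, fell by 1.84 and 1.35.

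The largest falls included secreted and luminal prostate genes. ACP3, prostatic acid phosphatase, was listed at 0.296 and 0.302 RPKM in AI mock libraries and 53.4 and 61.8 RPKM in AI untreated libraries, which is -6.18 ± 0.18 log2 units (SE; adjusted p from limma 9.48e-09). C1orf116, an androgen-regulated gene also known as SARG, had 0.601 and 0.293 RPKM in AI mock libraries and 44.9 and 41.5 RPKM in AI untreated libraries. Of 31 androgen-induced genes tested, 7 were called higher and 20 lower (median -1.10, TMM 9 and 16). The shares of all genes tested were 15.2% higher and 53.8% lower (TMM 29.9% and 33.9%), with a median of -0.59. STEAP2, a metalloreductase, fell by 3.61, PMEPA1, a brake on androgen and TGF-beta signalling, by 2.67, and ELL2, an elongation factor, by 2.64. KLK2 and KLK4 were among the members called higher. KLK2 had 429 and 406 RPKM in AI mock libraries and 180.0 and 140.2 RPKM in AI untreated libraries. KLK3 had 2081 and 2060.3 RPKM in AI mock libraries and 1802 and 1618 RPKM in AI untreated libraries, a difference that was not called with equal sums (0.28, limma adjusted p = 0.0865) or quantile normalization (0.033) but was called higher with TMM (0.87, adjusted p = 0.00114) and with values as deposited (0.69, adjusted p = 0.00869). Of 7 androgen-repressed genes 1 was called higher, DPP4, and 4 lower (TMM 1 and 3), a share of lower calls near that of all genes with equal sums.

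Transcription factors of luminal prostate cells did not move together. FOXA1, a pioneer factor that opens chromatin at luminal genes, had 14.9 and 15.8 RPKM in AI mock libraries and 105 and 134 RPKM in AI untreated libraries. The groups were wide apart, with a log2 change of -2.91. HOXB13 was 130.5 and 128 RPKM in AI mock libraries and 171 and 162 RPKM in AI untreated libraries, a small change whose sign turned with TMM and with values as deposited. GATA2, a zinc finger factor, rose by 1.21. On the luminal list as a whole 1 of 15 members was called higher and 10 lower (TMM 3 and 7), where 53.8% of all genes were called lower (TMM 33.9%).

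The markers of the line were present in all 4 libraries. The summed level of 10 luminal markers was 3177 and 3141 RPKM in AI mock libraries and 3584 and 3367 RPKM in AI untreated libraries. KRT5 and TP63 of basal cells and PECAM1 of endothelium were listed at 0 in all 4 libraries, and the sum of 3 neuroendocrine markers was 0.367 and 0.311 RPKM in AI mock libraries and 1.06 and 1.26 RPKM in AI untreated libraries. The sum of 4 mesenchymal markers differed, at 20.7 and 18.2 RPKM in AI mock libraries and 1.55 and 1.81 RPKM in AI untreated libraries, and most of it in AI mock libraries was VIM (vimentin, an intermediate filament), with 18.6 and 15.9 RPKM in AI mock libraries and 0.372 and 0.616 RPKM in AI untreated libraries. COL1A1, a chain of collagen I and the larger part of the sum in AI untreated libraries, rose by 0.74, with 2.05 and 2.21 RPKM in AI mock libraries and 1.07 and 1.08 RPKM in AI untreated libraries. Of 6 mesenchymal genes tested 4 were called higher and 0 lower (TMM 6 and 0), and the part of other cells in this was not tested. COL1A2 was listed at 0 in both AI mock libraries and COL3A1 at no more than 0.0266 RPKM there. In bulk RNA a change in the share of cells and a change of RNA per cell cannot be told apart.

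Genes for ribosome assembly and MYC partners were the list with the lowest median. Of 20 tested, 3 were called higher and 15 lower, with a median of -1.97 (TMM 5 and 13). NOP56, a core protein of box C/D snoRNA particles, had 28.3 and 25.5 RPKM in AI mock libraries and 254 and 271 RPKM in AI untreated libraries (limma adjusted p = 9.48e-09). NOP2, a ribosomal RNA methyltransferase, fell by 2.85, NCL (nucleolin) by 1.98, DKC1, of H/ACA particles, by 2.01, and POLR1A and POLR1B, the largest subunits of RNA polymerase I, by 2.25 and 2.52. MAX, the obligate partner of MYC, fell by 2.23, while MXI1 and MXD1, which compete with MYC for it, rose by 2.11 and 0.95. FBL (fibrillarin) also rose (1.37).

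Most splicing factors and RNA helicases were lower. Of 43 splicing factors tested, 3 were called higher and 30 lower, and of 31 helicases 2 higher and 23 lower (TMM 12 and 22, and 6 and 17). DDX5, a helicase and transcriptional coregulator, had 19.4 and 21.6 RPKM in AI mock libraries and 379 and 437 RPKM in AI untreated libraries. SRSF1, a prototype of the serine/arginine-rich splicing factors, had 0.878 and 0.497 RPKM in AI mock libraries and 17.2 and 15.9 RPKM in AI untreated libraries. HNRNPM, which binds intronic and exonic silencers, had 32.4 and 34.4 RPKM in AI mock libraries and 299.5 and 320.2 RPKM in AI untreated libraries. In these 3 genes every AI untreated library was above every AI mock library by a wide margin. SRSF3, SRSF5, SRSF6 and TRA2B fell by 2.31, 3.38, 3.08 and 2.35. The exceptions with the largest rises were CLK1, a kinase that phosphorylates these same proteins (2.93), and SRSF4 (1.54). CLK1 had 50.5 and 54.3 RPKM in AI mock libraries and 4.75 and 8.68 RPKM in AI untreated libraries. MAT2A, which makes S-adenosylmethionine and is outside these lists, fell by 4.43.

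Chaperones of the cytosol were lower, with 1 of 14 heat shock genes called higher and 11 lower (median -1.73; TMM 3 and 10). HSPH1 and CHORDC1, co-chaperones of HSP70 and HSP90, fell by 2.84 and 2.84. HSPA8, the constitutive HSP70, had 376 and 382 RPKM in AI mock libraries and 1313 and 2177 RPKM in AI untreated libraries, and the AI untreated libraries differed from each other far more than the AI mock ones. HSPB1 (HSP27) was the exception, with 1469 and 1596 RPKM in AI mock libraries against 423 and 400.1 RPKM in AI untreated libraries. Chaperones of the endoplasmic reticulum were also lower, with 1 of 21 called higher and 17 lower, though TMM left 4 higher and 7 lower, a share of lower calls near the 33.9% of all genes with TMM. HSPA5 (BiP) fell by 1.66 and CALR (calreticulin) by 1.36, and ERN1 (IRE1), a sensor of misfolded proteins, was the member called higher (0.51), a call lost without any single library of the 4 (0.46 to 0.55).

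Most replication genes were lower, and mitotic genes were mixed. Of 34 genes of the G1/S transition and DNA replication, 2 were called higher and 27 lower (median -0.89; TMM 4 and 17). MCM3, part of the replicative helicase, had 8.32 and 9.02 RPKM in AI mock libraries and 55.3 and 86 RPKM in AI untreated libraries, and PCNA, the sliding clamp, had 28.2 and 31.5 RPKM in AI mock libraries and 155 and 151 RPKM in AI untreated libraries. CDT1, which loads that helicase, was called higher (1.26). Of 30 G2/M genes 13 were called higher and 7 lower (TMM 20 and 3). TOP2A and CDK1 rose by 1.59 and 1.53, CDC20 and AURKB by 1.47 and 1.26, while MKI67, CENPF and AURKA fell by 1.68, 1.55 and 1.40.

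**Figure D3:**
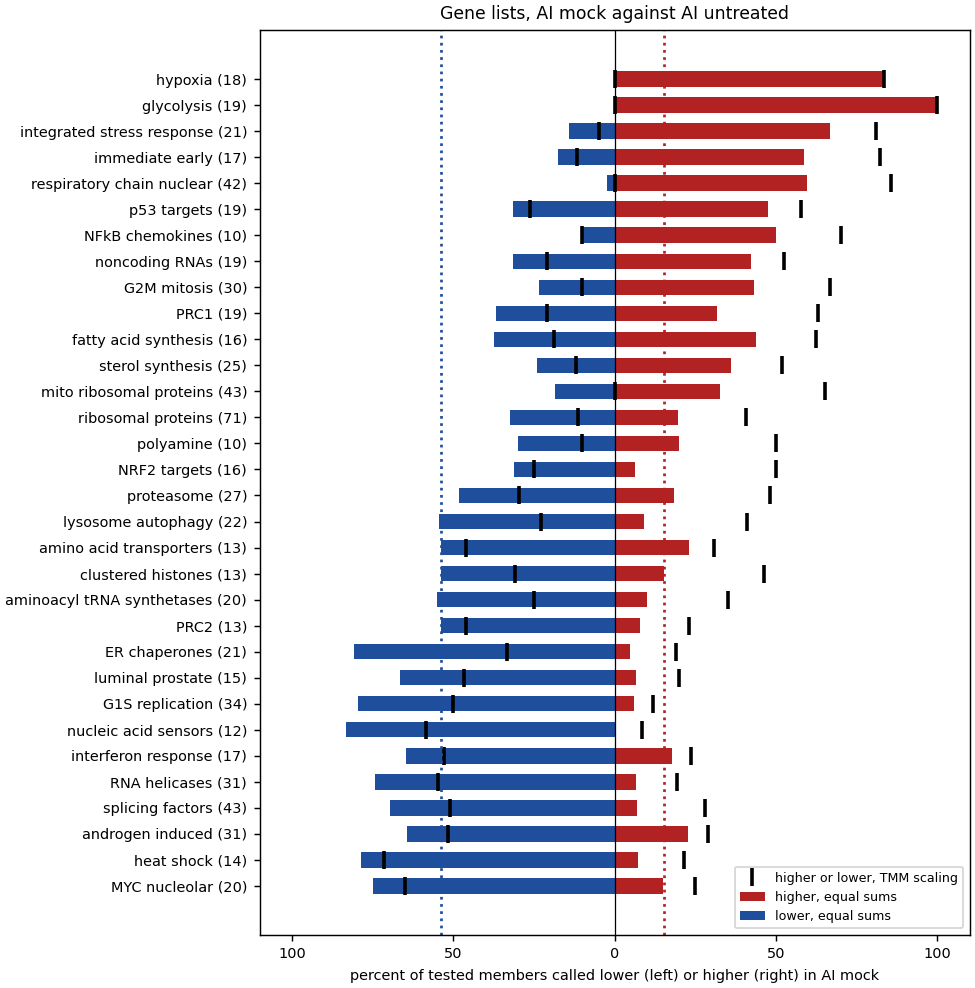
Percent of tested members called higher (red, to the right) or lower (blue, to the left) in AI mock against AI untreated cells for the lists with at least 10 genes tested, with the number tested in brackets; black ticks give the same with TMM scaling and dotted lines the percent of all genes with equal sums (15.2 and 53.8). All 19 glycolysis genes stand on the right, and 15 of 20 MYC and nucleolar genes on the left.

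For several lists the direction itself depended on the scaling. Cytosolic ribosomal proteins had 14 of 71 called higher and 23 lower with equal sums and 29 higher and 8 lower with TMM, and these genes too have many pseudogene copies. The proteasome list had 5 of 27 called higher and 13 lower, and 13 higher and 8 lower with TMM. The lysosome list had 2 of 22 called higher and 12 lower, and 9 and 5 with TMM, aminoacyl-tRNA synthetases 2 and 11 of 20, and 7 and 5 with TMM, and NRF2 targets 1 and 5 of 16, and 8 and 4 with TMM. Within them some members moved far enough to keep their sign. SQSTM1, the autophagy adaptor p62, had 61.6 and 58.4 RPKM in AI mock libraries and 257 and 238 RPKM in AI untreated libraries, and TKT (transketolase), an enzyme of the pentose phosphate pathway, had 664 and 641 RPKM in AI mock libraries against 238 and 211 RPKM in AI untreated libraries. Of 13 histone genes 2 were called higher and 7 lower (TMM 6 and 4), and replication-dependent histone transcripts mostly lack a poly(A) tail, so this library type catches few of them. Smaller lists were mixed: amino acid transporters had 3 of 13 called higher and 7 lower (TMM 4 and 6), polyamine genes 2 and 3 of 10 (TMM 5 and 1), zinc genes 2 and 4 of 7 (TMM 3 and 2), antigen presentation genes 1 and 2 of 9 (TMM 3 and 2) and sterol efflux genes 3 and 2 of 7 (TMM 3 and 1). SLC3A2, the shared heavy chain of several amino acid exchangers, rose by 1.28, and SLC38A2, a glutamine carrier induced by amino acid shortage, fell by 2.39. ODC1, which makes the first polyamine, fell by 1.44, and OAZ1, the antizyme that marks ODC1 for degradation, rose by 1.27. Of 19 long noncoding RNAs 8 were called higher and 6 lower (TMM 10 and 4). The snoRNA host genes ZFAS1, SNHG29 and GAS5 rose by 2.15, 1.58 and 1.39, and NORAD and TUG1 fell by 2.21 and 2.09.

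Polycomb genes are the subject of the wider study, and the mock siRNA is the control for EZH2 knockdown. EZH2, the methyltransferase of Polycomb repressive complex 2, had 6.34 and 4.83 RPKM in AI mock libraries and 11.4 and 15.9 RPKM in AI untreated libraries, which is -1.21 ± 0.22 log2 units (SE; adjusted p from limma 7.53e-04), or -0.65 with TMM. AI cells that received siRNA against EZH2 had 3.14 and 3.72 RPKM. The core partners EED and SUZ12 fell by 2.02 and 1.29 and the accessory subunit JARID2 by 1.87. Of 13 genes of this complex 1 was called higher, PHF1 (0.89), and 7 lower (TMM 3 and 6). Of all genes tested 53.8% were called lower (TMM 33.9%). The median change of the 13 was -0.55, close to the -0.59 of all genes. Polycomb repressive complex 1 was mixed, with 6 of 19 called higher and 7 lower, and 12 and 4 with TMM. CBX6, a chromodomain reader of the mark, fell by 2.61, and RYBP, of the variant complexes, rose by 1.75.

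Some genes passed between near absence and clear expression. At 2 RPKM or more in both libraries of one group and 0.1 RPKM or less in both of the other, 36 genes were low in AI mock and expressed in AI untreated cells, of which 17 were protein-coding, and 9 genes were low in AI untreated and expressed in AI mock cells, of which 3 were protein-coding. The 3 were ASB2, CA9 and CXCR4. CXCR4, a chemokine receptor, had 2.29 and 2.31 RPKM in AI mock libraries and 0.0563 and 0 RPKM in AI untreated libraries. Among the 36 were BASP1, a membrane-bound brain protein also seen as a transcriptional corepressor, with 0 and 0.071 RPKM in AI mock libraries against 25.2 and 20.8 RPKM in AI untreated libraries, and LPAR3, a receptor for lysophosphatidic acid, with 0.0807 and 0.0622 RPKM in AI mock libraries against 4.26 and 5.81 RPKM in AI untreated libraries. RPL15 and PSMA1, which every cell uses, did not reach the filter of the test, so a value near 0 in this table does not show that a gene is silent.

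Levels in AI siEZH2 cells, which met the same reagent and siRNA of another sequence, are set beside these values without a test, since both comparisons would use the same AI untreated libraries. AI mock and AI siEZH2 libraries correlated at 0.984 to 0.985 across genes. ANKRD37 had 642 and 714 RPKM in AI siEZH2 libraries, ATF3 887 and 884 RPKM, and ACP3 0.209 and 0.31 RPKM, all on the side of the AI mock values. Of the 36 genes low in AI mock cells, 17 were at 0.1 RPKM or less in both AI siEZH2 libraries and 0 were at 2 RPKM or more in both. Of the 9 expressed in AI mock cells, 8 were at 2 RPKM or more in both AI siEZH2 libraries. These shares use AI libraries that were not part of the selection in AI mock and AI untreated cells.

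The same step was taken in AD cells, and the difference between the effects was tested in the same fit, in which the AI and AD pairs share no library. The mock effect was higher in AI than in AD cells for 1018 genes (8.16%) and lower for 6115 (49%) by limma at an adjusted p under 0.05, and with TMM for 2729 and 3011. The median effect of AD cells was 0.14 with equal sums, and the median difference between the effects was -0.71 with equal sums and -0.04 with TMM. Across the 12477 genes the AI and AD effects correlated at Pearson 0.298 and Spearman 0.310, as a description across genes, which are not independent replicates.

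Hypoxia and glycolysis genes differed between the cell types. The AI effect was the higher one for 14 of 18 hypoxia genes, and lower for 2, and for 17 of 19 glycolysis genes, with none lower, and TMM gave 15 and 19 higher and none lower. The list medians were 2.18 in AI and 0.48 in AD cells for hypoxia, and 1.56 in AI and -0.02 in AD cells for glycolysis. ANKRD37, with the highest difference of all genes tested (5.68, limma adjusted p = 5.61e-08), had 57.2 and 55.2 RPKM in AD mock and 27 and 33.5 RPKM in AD untreated libraries. FOS had 4.4 and 4.09 RPKM in AD mock and 15.2 and 15.5 RPKM in AD untreated libraries, so that it was lower after mock transfection in AD cells and higher in AI cells (difference 5.66). BHLHE40 had 50.1 and 48.4 RPKM in AD mock and 46.2 and 57.1 RPKM in AD untreated libraries, groups that overlap, against the large rise in AI cells (difference 5.24). GDF15, already at 4999.7 and 4028 RPKM in AD untreated libraries, had 3530.1 and 3729 RPKM in AD mock libraries (difference 4.01). For each of the 4 the AI untreated level was the lowest of the 4 groups.

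Interferon and sensor genes differed the other way. These genes answer foreign nucleic acid, through receptors such as RIGI and IFIH1 (MDA5), and interferon. Of 17 interferon response genes tested, 3 were called higher and 11 lower in AI mock cells (TMM 4 and 9), with a median of -0.93 in AI and 1.69 in AD cells. Of 12 sensor and adaptor genes 0 were called higher and 10 lower (TMM 1 and 7), with medians of -0.90 in AI and 1.09 in AD cells. Over all genes tested 15.2% were called higher and 53.8% lower in AI mock cells (TMM 29.9% and 33.9%). The medians of all genes were -0.59 in AI and 0.14 in AD cells. The difference between the effects was called lower in AI cells for 15 of the 17 and 12 of the 12, and with TMM for 14 and 8. Over all genes it was called lower for 49%, and with TMM for 3011 of 12425. IFI35 had 1.6 and 1.78 RPKM in AI mock and 21.9 and 18.6 RPKM in AI untreated libraries, and 29.1 and 27.8 RPKM in AD mock and 3.25 and 3.12 RPKM in AD untreated libraries (difference -6.21). OASL, a 2'-5'-oligoadenylate synthetase-like protein, had 0.305 and 0.231 RPKM in AI mock and 0.676 and 0.78 RPKM in AI untreated libraries, against 64.4 and 58.5 RPKM in AD mock and 0 and 0.025 RPKM in AD untreated libraries, and the sign of its small AI change turned with quantile normalization (0.03). ISG15, a ubiquitin-like modifier, was an exception in AI cells, with 141 and 125 RPKM in AI mock and 81.5 and 38.5 RPKM in AI untreated libraries, yet its rise was smaller there than in AD cells (difference -3.15), and the AI call was lost without AI mock library 1 or without AI untreated library 2 (0.70). MX1, an antiviral GTPase, fell by 1.08, and MAVS, the adaptor that RIGI and IFIH1 share, by 1.99. A further 20 genes of the interferon list were not tested in the AI comparison, IFIT2 and IFIT3 among them, as they are not listed or were under the filter.

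Single genes outside these lists also moved in opposite directions in the 2 cell types. DIO3, the deiodinase that inactivates thyroid hormone, had 0.287 and 0.133 RPKM in AI mock and 5.07 and 5.94 RPKM in AI untreated libraries, and 241 and 212 RPKM in AD mock and 5.64 and 4.46 RPKM in AD untreated libraries (difference -8.45). CBLN2, a secreted synapse organiser, had 1.3 and 1.45 RPKM in AI mock and 79.5 and 70.1 RPKM in AI untreated libraries, and 20.3 and 23.6 RPKM in AD mock and 6.14 and 6.52 RPKM in AD untreated libraries (difference -7.04). BASP1 fell in AI cells and rose in AD cells, where it stayed near the floor (difference -6.70). Its AD levels were 0.529 and 0.983 RPKM in AD mock and 0 and 0.0375 RPKM in AD untreated libraries. DUSP5, a phosphatase that ERK signalling induces, rose in both cell types, with a smaller rise in AI cells (difference -2.53), and IER3 rose in both with a difference that was not called (0.61, limma adjusted p = 0.0601), though it was in 7 of 17 alternatives. These were TMM (1.29), quantile normalization (1.23), values as deposited (0.79), a pseudocount of 1 (0.65), the replicate block (limma adjusted p = 0.015), and the fits without AI mock library 2 (0.76) or AI untreated library 1 (0.84). Ribosomal proteins, with a median of -0.09 in AI and -1.46 in AD cells, had a higher effect in AI cells for 56 of 71 members and a lower one for 0 (TMM 69 and 0).

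**Figure D4:**
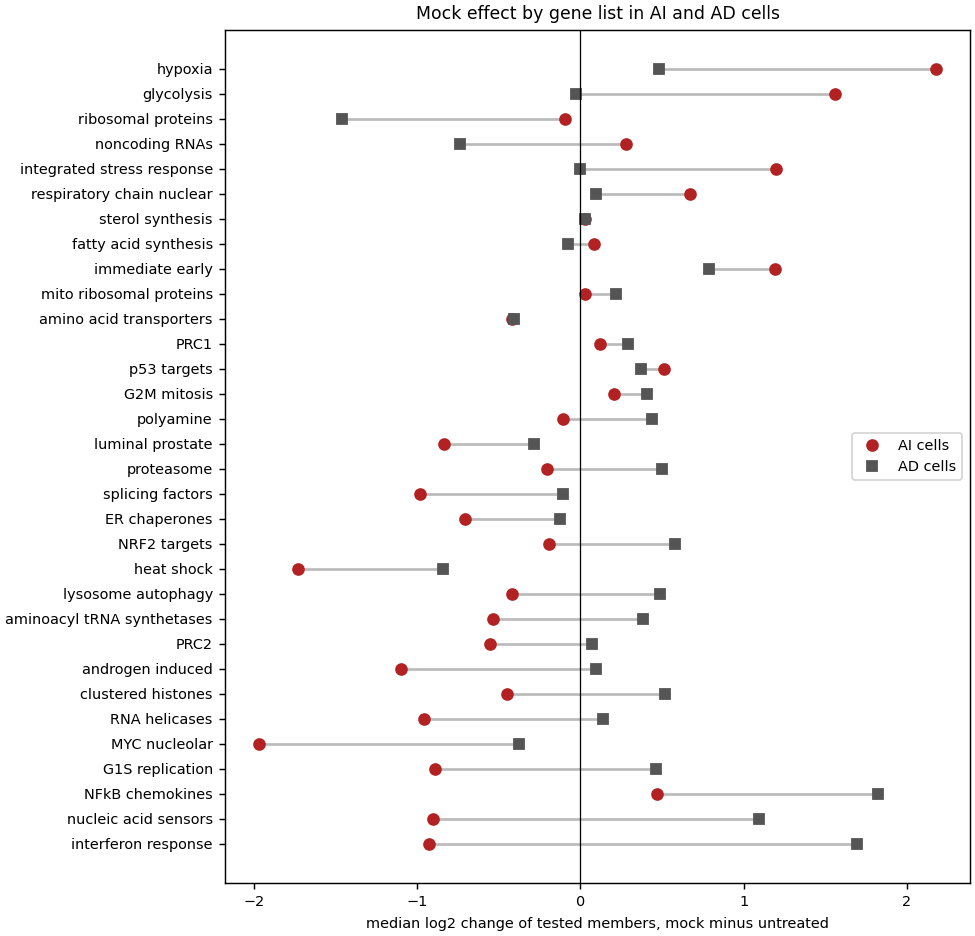
Median log2 change of the tested members of each list with at least 10 genes tested, mock minus untreated with equal sums. Red circles are AI cells and grey squares AD cells, with lists ordered by the median difference between the effects. Hypoxia stands at 2.18 in AI and 0.48 in AD cells, and the interferon response at -0.93 in AI and 1.69 in AD cells.

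The calls also varied with the length of the gene. Among 10521 protein-coding genes with a span in the RefSeq table, 24.4% of the 2631 with the shortest spans (388 to 12890 nt) were called higher and 44.93% lower in AI mock cells, against 10% higher and 60.61% lower among the 2630 with the longest. The median change was -0.32 in the shortest and -0.72 in the longest class, against 0.21 and 0.09 in AD cells. The median level over the 4 AI libraries was 14.3 RPKM in the shortest and 3.78 RPKM in the longest class, so spans were also set side by side within 3 classes of mean level of equal size. In the highest level class 32.95% of 1305 short genes were called higher and 34.71% lower, against 14.45% and 57.34% of 429 long genes. In the lowest level class the shares were 11.23% and 56.33% of short genes against 8.885% and 58.3% of long genes. These are descriptions over genes, without a test.

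**Figure D5:**
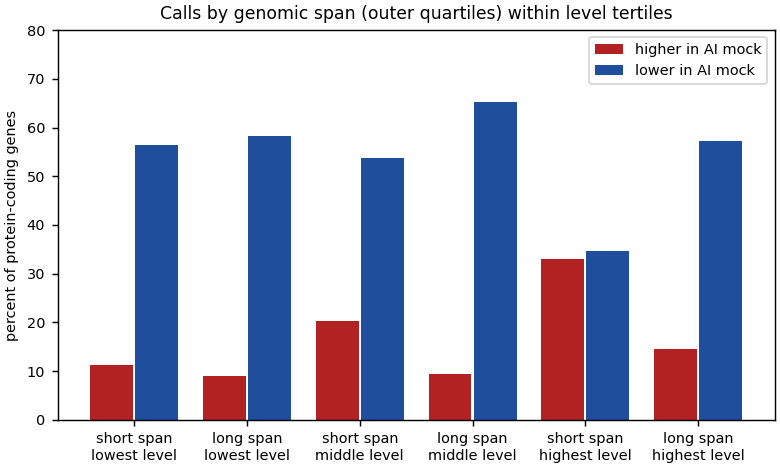
Percent of protein-coding genes called higher (red) or lower (blue) in AI mock against AI untreated cells, for the genes with the shortest and the longest genomic spans (outer quartiles), within tertiles of the mean level over the 4 AI libraries. In the highest tertile 32.95% of short genes and 14.45% of long genes were called higher.

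Gene type and promoter features were set beside the calls in the same way. Processed pseudogenes had 35.45% of 110 called higher and 32.73% lower, against 15.2% and 54.9% of 10802 protein-coding genes, at a median level of 0.713 RPKM against 7.05 RPKM. For GC content and histone marks the whole RefSeq window of 300 bases was used, which runs past the gene start. By quartiles of promoter GC content the share called higher ran from 14.16% to 16.06%. H3K27me3 is the mark that EZH2 places. Of 52 protein-coding genes whose promoter window met its peaks in both AI ChIP lists, 25% were called higher (13 genes) and 53.85% lower. Of 329 genes in 1 of the 2 lists 22.8% were called higher and 54.71% lower. Among 8345 genes in neither list the shares were 14.72% and 54.93%. The median levels of these classes were 2.26, 1.57 and 7.79 RPKM, in that order, and the part of level was not tested.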

How the data were processed

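The table of RPKM values was deposited by the authors as 1 file for 12 RNA-seq libraries, made from poly(A) RNA with directional paired-end reads of 151 nt, per the labels' protocols. Build GRCh38 and, without versions, edgeR, TopHat2 and cutadapt stand in the submitters' processing notes, which give neither the gene length nor the read total behind RPKM. Peak positions came from H3K27me3 peak lists deposited by the authors per AI sample, and the score of each peak was not used.

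Mitochondrial genes were removed, the columns rescaled to equal sums, and log2(RPKM + 0.5) fitted by limma 3.58.1 (R 4.3.3, trend) with 1 coefficient per group and no replicate block; the threshold was a Benjamini-Hochberg adjusted p under 0.05 over all 12477 genes. TMM factors were computed on the RPKM values against AI untreated library 1. The fit was tested on simulated data.

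The comparison, the 41 gene lists and the named genes were chosen with earlier results of these data known. Named were the 12 largest rises and falls among called genes, and up to 4 called members of each list with the largest change. Each list also gave 1 of the opposite direction and 1 not called. Also named were the 8 largest called differences between AI and AD effects each way, the markers and EZH2. Some genes of this rule are not reported here. Further list members, and ASB2, CXCR4 and LPAR3, were named for their role after their values were seen. Of 935 list entries 789 were tested, 89 were under the filter and 57 are not listed in the table. Alternatives were other pseudocounts, filters, scalings, sets of libraries, a replicate block and each library left out. RefSeq tables of GRCh38.p14 gave spans and promoters.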

Additional observations from a re-analysis of the deposited data

Results flagged for a closer look

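The AI minus AD difference was printed above for 11 genes. For 10 of these it was called by the limma test of the difference itself, at an adjusted p under 0.05. ANKRD37, FOS, BHLHE40, DIO3, CBLN2, BASP1 and IFI35 met the naming rule for the largest differences, which took only genes called in this test. The count of 10 is therefore fixed in part by the selection and is not a result about these genes. Further genes named above were also called in that test, such as C1orf116 (-5.37) and MAFF (4.99), and are not listed here. Across all genes 8.16% of such tests were called higher in AI cells and 49% lower. The effect was higher in AI cells for ANKRD37 (5.68), FOS (5.66), BHLHE40 (5.24) and GDF15 (4.01), and lower for DIO3 (-8.45), CBLN2 (-7.04), BASP1 (-6.70), IFI35 (-6.21), ISG15 (-3.15) and DUSP5 (-2.53), all in log2 units. FOS rose in AI cells and fell in AD cells, while DIO3, CBLN2, BASP1 and IFI35 fell in AI cells and rose in AD cells. The AD levels of BASP1 were low, at 0.529 and 0.983 RPKM in AD mock libraries. Of the 10 genes, 8 kept their direction and their call under all 17 alternatives. BASP1 and DIO3 kept theirs where they were tested, but fell under the filter without either AI untreated library. AI and AD cells also differed in culture medium, and the part of medium, of subline and of the amount of siRNA taken up in these differences was not tested.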

How the results depend on the processing

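The scaling moved the split between rises and falls. Values as deposited gave 3038 genes called higher and a median change of -0.22, quantile normalization gave 3623 higher, 3820 lower and a median of -0.0297, with 2559 AI minus AD differences higher and 2767 lower, and TMM gave 3719 higher, 4213 lower and a median of -0.0602, with 2729 differences higher and 3011 lower. More lists had rises than falls with TMM (25 against 14), where equal sums gave 15 against 24. Without a filter on low values the median was -0.16, since 23099 genes were then tested. With the replicate number as a block 1965 genes were called higher and 6832 lower. Deviations of same-numbered AI mock and AI untreated libraries correlated at 0.074 across genes, so no pairing was assumed between these groups. Untreated libraries of the same number had similar mitochondrial shares, at 19.6% (AI) and 18.4% (AD) in library 1. In library 2 the shares were 33.4% (AI) and 32.6% (AD). Whether same-numbered untreated libraries were handled together was not tested.

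Leaving out 1 library at a time gave 6453 (without AI untreated library 2) to 7178 genes called in all, 1326 to 1828 higher and 4823 to 5829 lower, against 8601, 1892 and 6709 with all libraries. The median lay between -0.62 and -0.45, the genes of the naming rule that were called between 191 and 202, the lists with more rises between 14 and 16, and those with more falls between 23 and 24. Differences between the cell types numbered 5747 to 7774, with 725 to 1085 higher and 4813 to 6689 lower. A group left with 1 library was assumed to vary like the others.

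Of the 154 genes named, 143 could be tested under all 13 alternatives, and 131 of these kept their direction and call in each; the other 11, such as ACP3 and CA9, fell under the filter in at least 1. Signs turned for EPAS1 (0.10 as deposited, 0.54 quantile, 0.23 TMM), CA12 (0.19 quantile, 0.0086 TMM), HOXB13 (0.0505 as deposited, 0.23 TMM) and OASL (0.0306 quantile), and the cause was not tested. With 2 libraries a group and no deposited read counts, small changes of genes near 0.5 RPKM cannot be judged.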
